A study of Mesocricetus auratus with 8 samples.

Results

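Integrins and laminins were examined in primary satellite cells (SCs), the stem cells of skeletal muscle, of the Syrian hamster. A gene was included when its symbol named a numbered integrin alpha or beta chain, the alpha-v chain Itgav, or a numbered laminin alpha, beta or gamma chain. This rule found 33 of the 17590 genes with values. They comprised 13 integrin alpha chains, 8 integrin beta chains, 5 laminin alpha chains, 3 laminin beta chains, 2 laminin gamma chains and 2 genes, Itgb1bp1 and Itgb1bp2, which matched by name but encode proteins that bind an integrin tail.

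Laminins are large secreted trimers of an alpha, a beta and a gamma chain, and they form the sheet-like network of basement membranes. Integrins are receptors on the cell surface, each made of an alpha and a beta chain, that hold cells to the matrix and signal into the cell. Satellite cells lie between the muscle fiber and its basement membrane, and in muscle the pair of Itga7 and Itgb1 is the main integrin that binds laminin.

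SCs were taken from hindlimb muscles of wild-type animals, which the study's methods give as male Slc:Syrian hamsters aged 8 to 16 weeks. They were enriched by preplating, which removes fibroblasts, and grown on Matrigel, a basement membrane extract that itself contains laminin protein. All cultures were grown at 37°C for 48 h and then for 24 h at 37°C in growth medium with 100 mM HEPES. Control libraries (37°C, n = 4) were sampled on day 3, before cold exposure. Cold libraries (n = 4) were sampled after a further 24 h at 4°C without a medium change. Cold libraries were therefore also 24 h older, and no library kept at 37°C for that time was analysed here. The treatment labels of control replicates 1 to 4 read 3, 4, 5 and 6 days at 37°C, whereas their titles all read day 3. The replicates are called biological by the study, and it is not stated whether a number marks an animal.

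The libraries held between 16530747 and 18533801 expected read counts, and the 33 genes took between 0.382% and 0.408% of them. None of the 33 genes had a fractional count in any library. All 9 markers of satellite cells and myoblasts had values, and their summed level was between 1824 and 2231 TPM, a level scaled for transcript length and library size, in control and between 1757 and 2076 TPM in cold libraries. Replicates 1 and 2 stood apart from replicates 3 and 4 in both groups along a first principal component that held 54.5% of the variance. The groups were compared with edgeR's quasi-likelihood test with the replicate number as a block, so that each cold library was set against the control library of its number. Genes were called at an adjusted p under 0.05, with p-values adjusted over all 12506 genes that entered the test.

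The chains that changed were few. Itga7, Itga6 and Itga4 fell after 24 h at 4°C, with changes of −18.4%, −41.85% and −46.6%, and the laminin chain Lama4 rose by 15.5% in the blocked edgeR fit. DESeq2 called neither the fall of Itga6 nor the rise of Lama4, and limma did not call Lama4. The other 26 genes tested, including Itgb1, the most abundant of the 33, did not pass the test. Of the 33 genes, 30 passed the filter on low counts. Among them, 3 (10.0%) were called lower, where 4.07% of all genes tested were called lower, and 1 (3.33%) was called higher, where 1.26% of all genes tested were called higher. The median log2 fold change was 0.0015 over the 30 genes and 0.0075 over all genes tested.

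These calls rested on the pairing by replicate number. In edgeR without the block, 0 of the 30 genes were called in either direction, where 0.072% of all genes tested were called lower and 0.0% higher. At an unadjusted p under 0.05, the unblocked fit held 2 of the 30 genes lower and 0 higher, where 4.13% and 2.57% of all genes tested were. The same threshold with the block held 3 genes lower and 5 higher, where 9.76% and 8.48% of all genes tested were. Under an added limit of 1 on the absolute log2 fold change, the blocked fit called 0 of the 30 genes, where 0.808% of all genes tested were called lower and 0.04% higher. The log2 fold change of the 30 genes lay between −0.91 for Itga4 and 0.50 for Itgb8, which was not called.

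**Figure D1:**
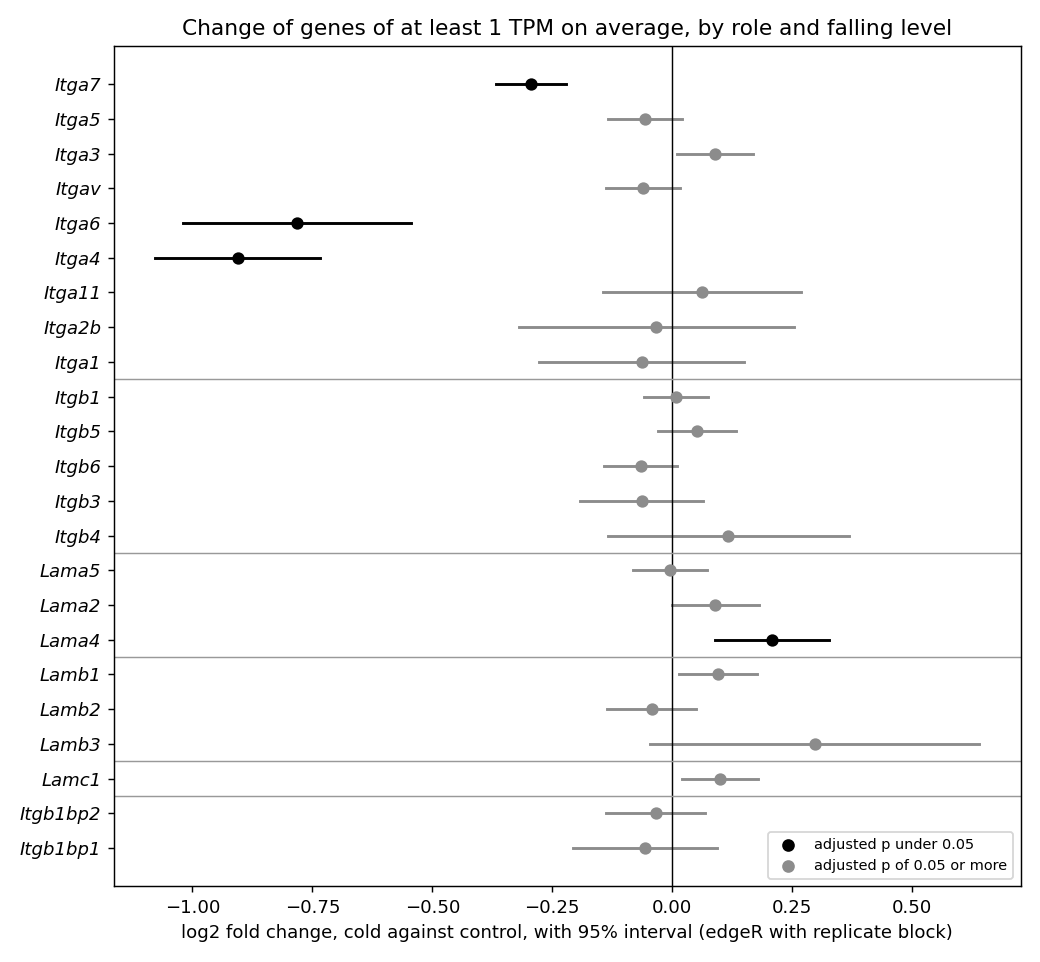
Log2 fold change, cold against control, of the 23 integrin and laminin genes with a mean of at least 1 TPM, by role and by falling level within a role. Points are edgeR estimates with the replicate block, lines are 95% intervals, and black marks an adjusted p under 0.05. Itga7, Itga6 and Itga4 lie left of 0 and Lama4 lies right of 0, and the abundant chains not called lie within 0.10 of 0.

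Itga7 (NCBI Gene 101827609) encodes the alpha chain of the main muscle laminin receptor and was the most abundant alpha chain. It was at 242, 229.6, 176 and 190.1 TPM in control replicates 1 to 4. In cold replicates 1 to 4 it was at 193, 191, 149 and 154 TPM. Each cold library was below the control library of its number, while the groups overlapped because cold replicates 1 and 2 lay above control replicates 3 and 4. Within pairs the change lay between −20.0% and −15.4%, a like size in every pair. The mean ± SD was 209 ± 31.2 TPM at 37°C and 172 ± 23.7 TPM after the cold (n = 4 each). This was a log2 fold change of −0.29 (SE 0.03). Its edgeR adjusted p was 1.14e-05 with the block and 0.797 without it.

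Itga6 (101839961) is a laminin-binding alpha chain that pairs with Itgb1 or Itgb4. Of the 30 genes tested, only Itga6 had groups that did not overlap in TPM, a share near those of all genes tested. Of all genes tested, 2.41% were lower and 2.27% higher without overlap. Itga6 was at 27.9, 24.7, 20.2 and 24.0 TPM in control replicates 1 to 4, and at 10.9, 12.4, 17.1 and 16.3 TPM in cold replicates 1 to 4. The fall was uneven across pairs. Itga6 changed by −61.0% and −49.7% in replicates 1 and 2 and by −15.2% and −32.4% in replicates 3 and 4. The means were 24.2 ± 3.17 and 14.2 ± 2.98 TPM (SD, n = 4 each). On the log2 scale the change was −0.78 (SE 0.11). Its edgeR adjusted p was 0.000122 with the block and 0.143 without it. DESeq2 with the block gave an adjusted p of 0.0587 for this gene.

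Itga4 (101829758) encodes the alpha chain of a receptor for VCAM1 and fibronectin. Control replicates 1 to 4 held 15.8, 16.6, 6.78 and 10.9 TPM, and cold replicates 1 to 4 held 6.57, 9.33, 4.35 and 6.63 TPM. It was lower in the cold in every pair, with changes between −58.5% and −35.8%, and the groups overlapped because control replicate 3 was below cold replicate 2. Its means were 12.5 ± 4.59 and 6.72 ± 2.04 TPM (SD, n = 4 each). The log2 fold change was −0.91 (SE 0.08), the lowest of all 30 genes. Its edgeR adjusted p was 3.79e-07 with the block and 0.545 without it.

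When replicates 1 and 2 and replicates 3 and 4 were fitted apart, Itga7, Itga6 and Itga4 were called lower in both fits. Of the 30 genes, 4 were called lower and 2 higher in replicates 1 and 2, where 9.43% and 7.72% of all genes tested were. The fourth lower gene was Lamb2, and the higher genes were Lama4 and Lamc1. In replicates 3 and 4, 3 were called lower and 0 higher, where 2.29% and 0.659% of all genes tested were. The log2 fold change of Itga6 was −1.22 in replicates 1 and 2 and −0.37 in replicates 3 and 4. For Itga4 the values were −1.10 and −0.66, and for Itga7 they were −0.34 and −0.25. The difference between these fits was not tested.

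**Figure D2:**
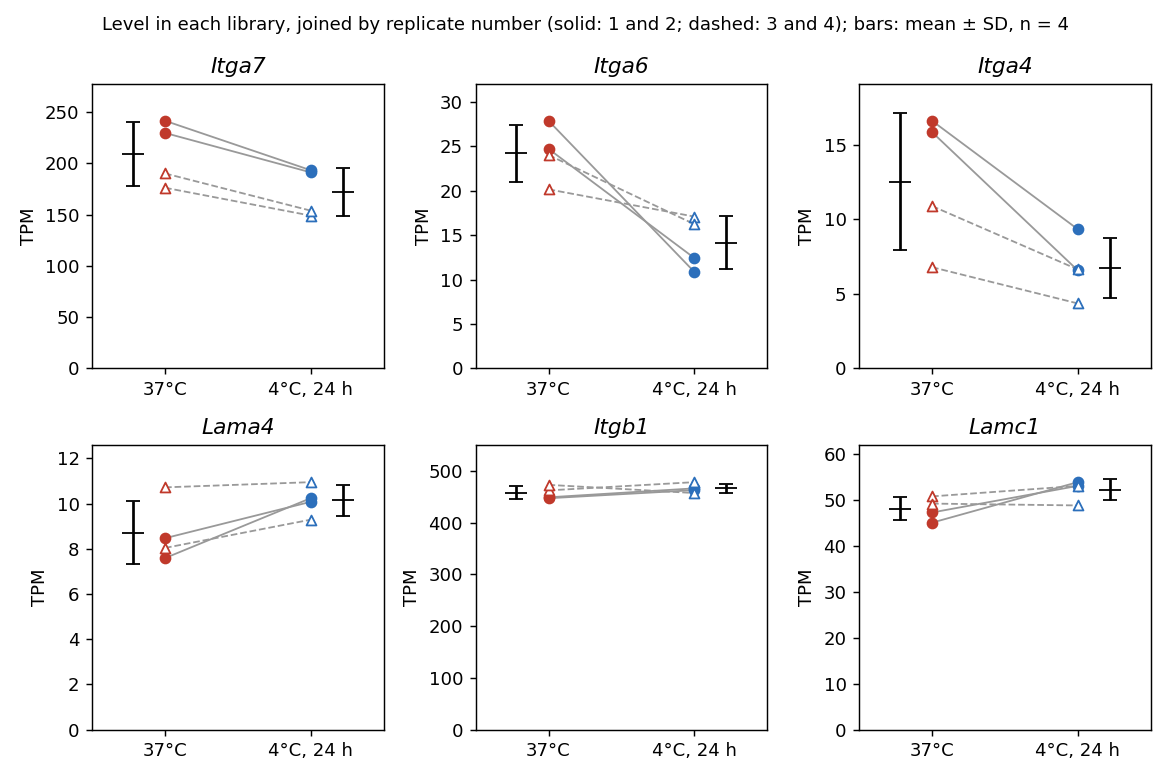
TPM of 6 genes in each library, joined by replicate number, with the axis from 0. Filled circles and solid lines are replicates 1 and 2, open triangles and dashed lines are replicates 3 and 4, and bars give the mean ± SD (n = 4). Itga7, Itga6 and Itga4 go down in every pair and Lama4 goes up in every pair, while Itgb1 stays between 447 and 478 TPM.

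Laminin, collagen and fibronectin are bound by different alpha chains, and the remaining abundant alpha chains did not pass the test. Itga3 (101823825), another laminin-binding chain, was at 41.6, 42.2, 74.0 and 75.6 TPM in control and at 48.2, 45.7, 78.7 and 78.8 TPM in cold replicates 1 to 4. It was higher in the cold in every pair, by between 4.12% and 15.9%, and its log2 fold change of 0.09 was not called (95% interval 0.01 to 0.17, adjusted p = 0.208 with edgeR). Its level differed more between replicates than between conditions, being 1.73-fold higher in replicates 3 and 4 than in replicates 1 and 2.

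Itga5 (101830043), whose pair with Itgb1 is the classical fibronectin receptor, was at 68.3, 70.1, 75.5 and 94.7 TPM in control and at 67.5, 68.3, 75.3 and 88.5 TPM in cold replicates 1 to 4. Its log2 fold change was −0.06 (95% interval −0.13 to 0.02, adjusted p = 0.451 with edgeR). Itgav (101826420), which binds vitronectin and other ligands with an RGD motif, was at 47.5, 47.1, 53.6 and 61.1 TPM in control and at 46.5, 46.3, 54.3 and 56.0 TPM in cold replicates 1 to 4. Its log2 fold change was also −0.06 (95% interval −0.14 to 0.02, adjusted p = 0.422 with edgeR). Both intervals leave room only for changes well under those of Itga6 and Itga4.

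The other alpha chains were scarce. The collagen-binding chain Itga11 was between 1.35 and 3.62 TPM over the 8 libraries, Itga1 at a mean of 1.12 TPM, Itga2 between 0.34 and 0.84 TPM and Itga10 between 0.08 and 0.15 TPM. The platelet chain Itga2b was between 1.25 and 2.48 TPM, Itga9 between 0.30 and 0.70 TPM and Itga8 between 0.13 and 0.33 TPM. Of the 12 alpha chains tested, 3 were called lower and 0 higher with edgeR and the block (2 and 0 with DESeq2, 0 and 0 without the block), where 4.07% and 1.26% of all genes tested were. At an unadjusted p under 0.05 they were 3 and 1, where 9.76% and 8.48% of all genes tested were, and their median log2 fold change was −0.04. By ligand, 2 of the 5 laminin-binding chains tested (Itga3, Itga6, Itga7, Itgb1 and Itgb4) were called lower with edgeR and the block, 1 with DESeq2, 2 with limma and 0 without the block, where 4.07% of all genes tested were called lower in the blocked fit. Of the 3 collagen-binding and 4 RGD-binding alpha chains tested, 0 were called with edgeR, DESeq2 or limma, and 0 had an unadjusted p under 0.05. The difference between these groups of chains was not tested. At the depth of these libraries Itga10 had at most 9 counts in any library, and it did not pass the filter, so small changes in it were out of reach.

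Itgb1 (101835360), the common partner of most alpha chains, was the most abundant of the 33 genes. It was at 447, 449, 462 and 473 TPM in control and at 463, 466, 478 and 457 TPM in cold replicates 1 to 4. Cold libraries were 3.44% to 3.85% higher in replicates 1 to 3, and the change was −3.35% in replicate 4. The log2 fold change was 0.0076 (95% interval −0.06 to 0.07, adjusted p = 0.936 with edgeR), and its sign turned when single libraries were left out.

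The beta chains that pair with Itgav came next. Itgb5 (101841615), a vitronectin receptor chain, was at 94.98, 100.2, 129.8 and 109.9 TPM in control and at 107, 99.8, 135 and 115 TPM in cold replicates 1 to 4, with a log2 fold change of 0.05 (95% interval −0.03 to 0.13, adjusted p = 0.530 with edgeR). Itgb6 (101843392), best known from epithelia as a chain of an activator of TGF-beta, was at 81.0, 87.4, 67.9 and 76.7 TPM in control and at 80.0, 88.7, 66.9 and 68.2 TPM in cold replicates 1 to 4. Its log2 fold change was −0.07 (95% interval −0.14 to 0.01, adjusted p = 0.364 with edgeR). Each of these chains alone exceeded Itgav in TPM in every library.

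Itgb3, also a partner of Itgav, was between 5.06 and 17.1 TPM. It was 2.71-fold higher in replicates 3 and 4 than in replicates 1 and 2, the widest such gap among genes of at least 1 TPM, and had a log2 fold change of −0.06 with the cold (95% interval −0.19 to 0.06). Itgb4, the hemidesmosome chain that pairs with Itga6, was between 0.98 and 2.23 TPM. Itgb2 and Itgb7, chains of leukocyte integrins, were at most 0.42 and 0.14 TPM, and Itgb8 was at most 0.22 TPM. Of the 7 beta chains tested, 0 were called lower and 0 higher with edgeR and the block, where 4.07% and 1.26% of all genes tested were, and DESeq2 and limma also called 0. None had an unadjusted p under 0.05 with edgeR, where 9.76% of all genes tested were lower and 8.48% higher at that limit. With so few chains, these counts are near the shares of all genes.

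**Figure D3:**
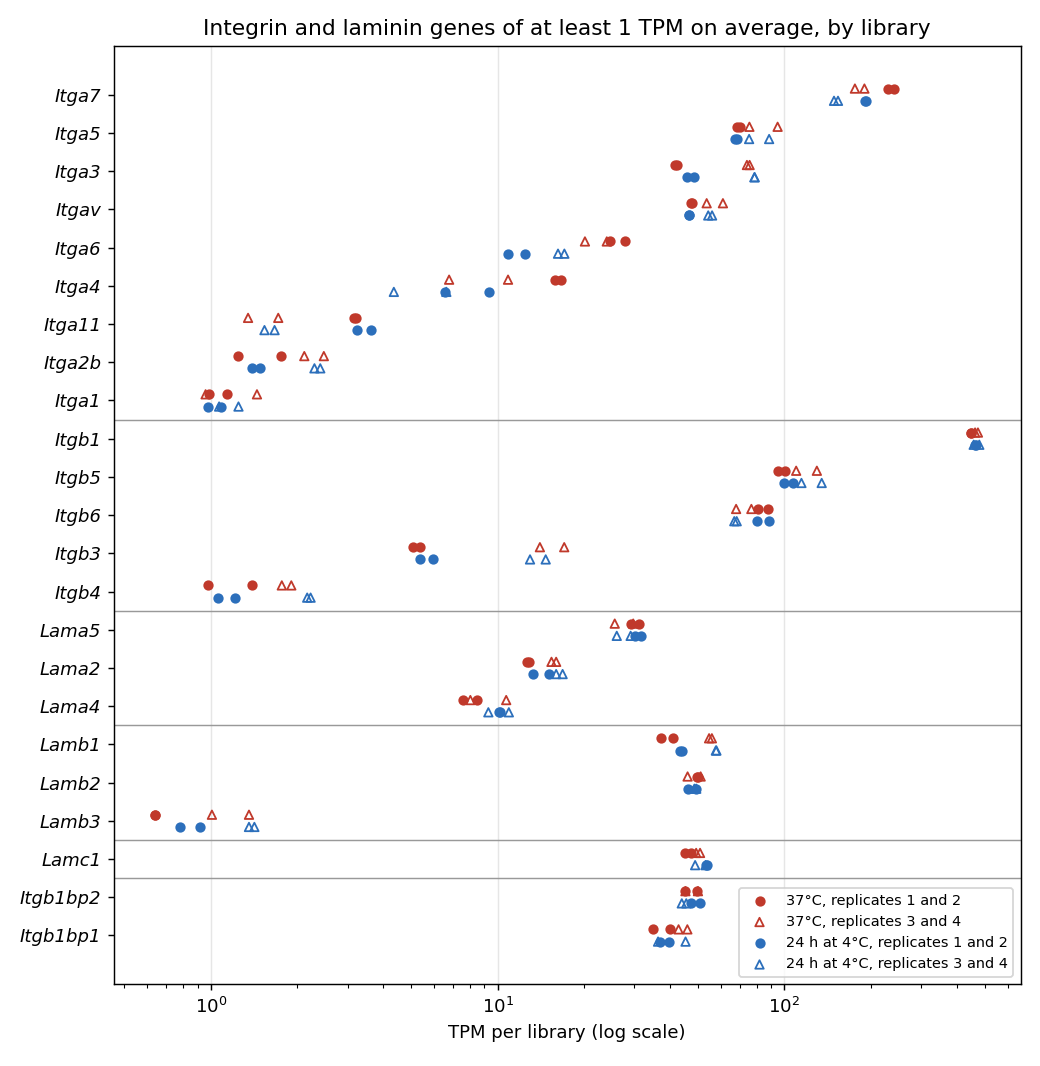
TPM in each library, on a log axis, of the 23 genes with a mean of at least 1 TPM, by role. Red is 37°C and blue is 24 h at 4°C, filled circles are replicates 1 and 2, and open triangles are replicates 3 and 4. For Itga3, Itgb3 and Lamb1 the symbols part by replicate number and not by temperature, and for Itga6 they part by temperature.

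Summed over the 13 genes, alpha chain mRNA had a mean ± SD of 441 ± 21.9 TPM at 37°C and 388 ± 12.8 TPM after the cold (n = 4 each). The control libraries lay between 412 and 464 TPM and the cold libraries between 380.1 and 407 TPM, without overlap. Itga7 accounted for 41.0% to 53.7% of this sum in control and for 37.8% to 50.8% in cold libraries. The summed beta chains were 657 ± 24.3 TPM at 37°C and 668 ± 18.6 TPM after the cold, and Itgb1 made up 68.4% to 71.0% of them in control and 68.7% to 70.4% in cold libraries. Summed beta chains therefore exceeded summed alpha chains in every library of both groups. No test was made on these sums, because they are built from genes already tested one by one, including the called Itga7, Itga6 and Itga4.

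**Figure D4:**
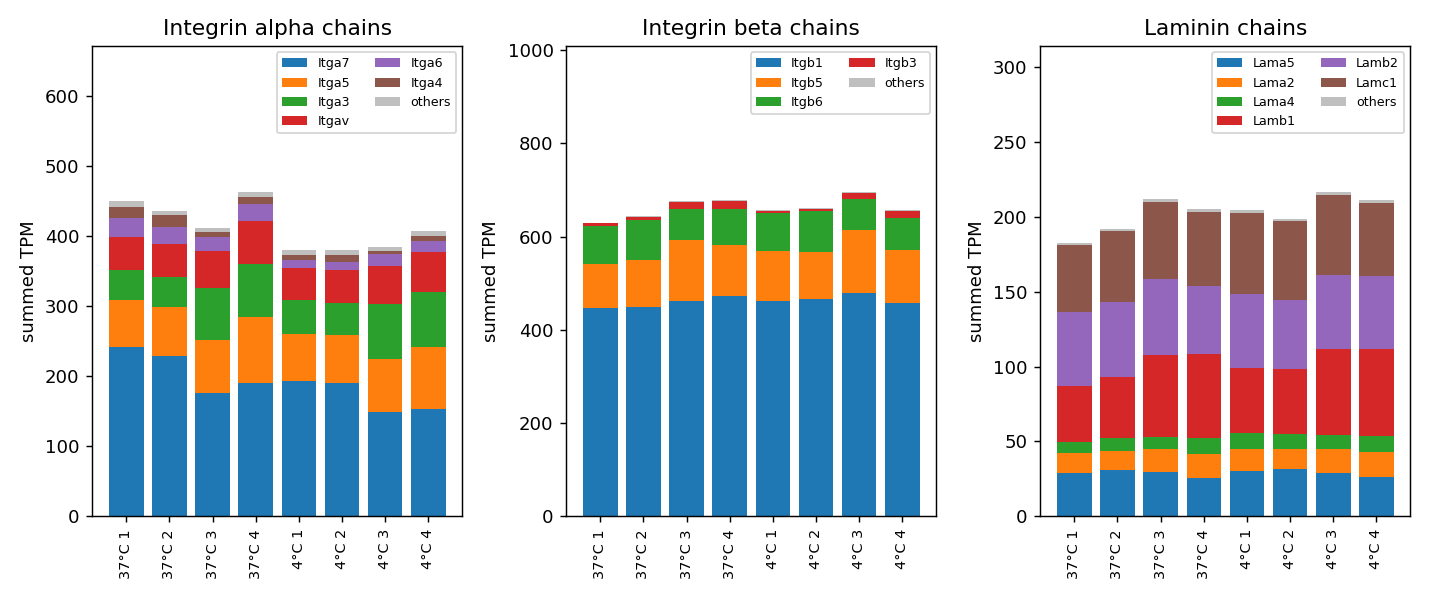
Stacked TPM of integrin alpha chains, integrin beta chains and laminin chains in each of the 8 libraries. Colors give single genes and grey the remaining chains. The integrin alpha chain bars are lower in the cold libraries (380.1 to 407 TPM) than in the control libraries (412 to 464 TPM). The bars of integrin beta chains and of all laminin chains together overlap between the groups.

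Among the laminins, the alpha chain Lama4 was the only gene called. Lama4 (101834813) encodes the alpha chain of laminins found around blood vessels, nerves and mesenchymal cells. It was at 7.59, 8.47, 8.04 and 10.7 TPM in control and at 10.2, 10.1, 9.29 and 10.9 TPM in cold replicates 1 to 4. Its level was higher in the cold in every pair, by between 2.15% and 34.9%, and the groups overlapped because control replicate 4 was above cold replicates 1, 2 and 3. The means were 8.71 ± 1.39 and 10.1 ± 0.681 TPM (SD, n = 4 each). The log2 fold change was 0.21 (SE 0.06). Its edgeR adjusted p was 0.0353 with the block and 0.798 without it. This call did not hold with DESeq2 or limma (adjusted p = 0.259 and 0.228), nor when any library of replicates 1, 2 or 3 was left out (adjusted p between 0.108 and 0.307 with edgeR).

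Lama5 (101837968), an alpha chain of laminins in most basement membranes, was the most abundant laminin alpha chain. It was at 29.2, 31.1, 29.7 and 25.6 TPM in control and at 30.1, 31.7, 29.1 and 26.0 TPM in cold replicates 1 to 4, with a log2 fold change of −0.0047 (95% interval −0.08 to 0.07, adjusted p = 0.967 with edgeR). Lama2 (101822630), the alpha chain of muscle laminin that is lost in a congenital muscular dystrophy, was at 12.8, 12.7, 15.42 and 16.01 TPM in control and at 15.1, 13.3, 16.01 and 16.9 TPM in cold replicates 1 to 4. It was higher in the cold in every pair, by between 3.83% and 17.8%, and was not called (log2 fold change 0.09, adjusted p = 0.274 with edgeR). Lama3, an epithelial chain, was at most 0.62 TPM. Lama1, the chain of the laminin in Matrigel, had at most 6 counts in any library and did not pass the filter, as did Itga10 and Itgb7.

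The beta chains Lamb1 and Lamb2 were about equally abundant. Lamb1 (101830978) was at 37.1, 40.9, 54.6 and 55.9 TPM in control and at 44.0, 43.3, 57.7 and 58.0 TPM in cold replicates 1 to 4. It was higher in the cold in every pair, by between 3.70% and 18.5% (log2 fold change 0.10, 95% interval 0.01 to 0.18, adjusted p = 0.187 with edgeR). Lamb2 (101842429), a beta chain enriched at the neuromuscular junction, was at 49.4, 50.1, 51.1 and 46.0 TPM in control and at 49.4, 46.0, 49.3 and 48.6 TPM in cold replicates 1 to 4 (log2 fold change −0.04, 95% interval −0.14 to 0.05, adjusted p = 0.671 with edgeR). It was −0.13 and called lower in replicates 1 and 2 alone, and 0.03 and not called in replicates 3 and 4 alone. Lamb3, which joins Lama3 in an epithelial laminin, was at most 1.42 TPM.

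Lamc1 (101830595), the gamma chain of most laminins, was at 45.1, 47.3, 50.8 and 49.2 TPM in control and at 53.9, 53.1, 53.1 and 48.9 TPM in cold replicates 1 to 4. Its log2 fold change was 0.10 (95% interval 0.02 to 0.18, adjusted p = 0.153 with edgeR). In replicates 1 and 2 alone it was called higher, with a log2 fold change of 0.15, and in replicates 3 and 4 alone the value was 0.04. The summed laminin alpha chains lay between 49.9 and 53.5 TPM in control and between 54.3 and 55.6 TPM in cold libraries. They were thus higher in the cold without overlap, which was not tested. Summed over all chains, laminin mRNA was 198 ± 13.2 TPM at 37°C and 208 ± 7.91 TPM after the cold. Lama1, Lama3 and Lamb3 made up little of it, so the main chains present were those that can form trimers of Lama5, Lama2 or Lama4 with Lamb1 or Lamb2 and Lamc1. Of the 9 laminin chains tested, 0 were called lower and 1 higher with edgeR and the block, where 4.07% and 1.26% of all genes tested were. DESeq2, limma and the unblocked fit called 0 in either direction. At an unadjusted p under 0.05 the blocked fit held 0 lower and 4 higher, where 9.76% and 8.48% of all genes tested were, and the median log2 fold change was 0.09.

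Neither of the proteins that bind the tail of Itgb1 was called. Itgb1bp2 (101828128), the muscle protein melusin, was at 49.5, 44.9, 45.2 and 49.97 TPM in control and at 47.2, 50.8, 45.5 and 43.9 TPM in cold replicates 1 to 4. Its log2 fold change was −0.03 (95% interval −0.14 to 0.07, adjusted p = 0.780 with edgeR). Itgb1bp1 (101834396), which binds the same tail and dampens integrin activation, was at 35.0, 39.9, 45.9 and 42.8 TPM in control and at 39.6, 36.8, 45.2 and 36.3 TPM in cold replicates 1 to 4. Its log2 fold change was −0.06 (95% interval −0.21 to 0.09, adjusted p = 0.744 with edgeR).

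Whether chains of a receptor or trimer changed by different amounts was tested on 5 ratios of TPM, with an exact two-sided permutation test over the 70 arrangements of 4 against 4 libraries. This test does not use the pairing by replicate number, so the gap between replicates 1 and 2 and replicates 3 and 4 enters its spread. None passed after adjustment over the 5 ratios. The ratio of Itga7 to Itgb1 was 0.540, 0.512, 0.381 and 0.402 in control and 0.418, 0.410, 0.312 and 0.337 in cold replicates 1 to 4. Cold was below control in 4 of 4 pairs, with a mean difference of −0.31 on the log2 scale (exact permutation p = 0.171, adjusted p = 0.429). The difference within pairs lay between −0.37 and −0.26. The smallest p that 4 against 4 libraries allow is 0.0286, and a single ratio at that p would not pass the adjustment over 5.

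The ratio of Itga7 to Itga6 was 8.66, 9.29, 8.73 and 7.91 in control and 17.8, 15.4, 8.71 and 9.47 in cold replicates 1 to 4. The difference was 0.50 on the log2 scale (exact permutation p = 0.0857, adjusted p = 0.429). Within pairs it was 1.04, 0.73, −0.0036 and 0.26 in replicates 1 to 4. The mean log2 difference was −0.14 for Lamb2 to Lamb1 (exact permutation p = 0.486, adjusted p = 0.643). It was −0.0096 for Lama2 to Lamc1 (exact permutation p = 0.886) and −0.04 for Itgb1bp2 to Itgb1 (exact permutation p = 0.514, adjusted p = 0.643). With single libraries left out, the difference for Lamb2 to Lamb1 lay between −0.26 and −0.03.

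The replicate number parted many of these genes more widely than the cold did. In 12 of the 30 genes tested (40.0%), all 4 libraries of replicates 1 and 2 were below all 4 libraries of replicates 3 and 4, where 23.5% of all genes tested did so. The 12 included Itga3, Itga5, Itgav, Itgb3, Itgb5, Lama2 and Lamb1. In 3 genes (10.0%) replicates 1 and 2 were higher throughout, where 9.09% of all genes tested were. These were Itga7, Itga11 and Itgb6, with mean levels in replicates 1 and 2 that were 1.28-, 2.11- and 1.21-fold those in replicates 3 and 4. The libraries were sorted here by their numbers after the split was seen, and no test was made.

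Every pair moved the same way in 9 of the 30 genes. Cold TPM was below control TPM in all 4 pairs for Itga4, Itga5, Itga6 and Itga7 (13.3%, where 10.5% of all genes tested were). It was above control TPM in all 4 pairs for Itga3, Itga9, Lama2, Lama4 and Lamb1 (16.7%, where 12.8% of all genes tested were). These shares are near those of all genes.

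A further list held adhesion and integrin-linked proteins of the cytoplasm, among them some muscle genes. Of this list, 32 had values and 30 were tested. With edgeR and the block, 3 were called lower and 0 higher (3 and 0 with DESeq2), where 4.07% and 1.26% of all genes tested were. At an unadjusted p under 0.05 they were 4 and 3, near the 9.76% and 8.48% of all genes tested, and the median log2 fold change was 0.0082. The 3 genes were Svil, which encodes the membrane-linked actin binder supervillin, the Z disc gene Ldb3 and the muscle filamin gene Flnc. Svil went from 17.9 ± 6.57 TPM down to 8.33 ± 2.27 TPM (mean ± SD), by −1.13 on the log2 scale (adjusted p = 1.21e-09 with edgeR and the block). Ldb3 fell from 8.11 ± 4.01 to 2.27 ± 0.771 TPM and Flnc from 92.0 ± 9.47 to 67.9 ± 2.96 TPM (SD, n = 4 each). The genes of talin, vinculin, kindlin and integrin-linked kinase were among the 27 that were not called.

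Of 22 other genes of the basement membrane or of laminin binding that were tested, 2 were called lower and 0 higher with edgeR and the block (1 and 0 with DESeq2, 0 and 0 with limma), where 4.07% and 1.26% of all genes tested were. At an unadjusted p under 0.05 they were 4 and 1, where 9.76% and 8.48% of all genes tested were, and the median log2 fold change was −0.03. Fn1, which encodes fibronectin, went from 453 ± 32.3 TPM down to 422 ± 26.3 TPM (mean ± SD), by −0.12 on the log2 scale (adjusted p = 0.0295 with edgeR and the block). Fras1, a basement membrane gene, was scarce, and fell from 0.193 ± 0.0377 TPM at 37°C to 0.0975 ± 0.0171 TPM after the cold (mean ± SD; adjusted p = 0.00692 with edgeR and the block). The adjusted p of Fn1 was 0.0167 with DESeq2 and 0.223 with limma, and that of Fras1 was 0.186 and 0.396. Without the block, 0 genes of either list were called.

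Markers of differentiating muscle cells were also lower in the cold. All 10 genes of that list, among them Myog, Mymk, Myh3 and Acta1, were called lower in the cold with edgeR and the block. Of all genes tested, 4.07% were called lower in that fit. The median log2 fold change of the 10 markers was −1.50, and none was at 0 in any group. The study had named Myh3, Myl4, Acta1, Tnnt1, Mef2c and Myl1 as lower from these same libraries, so these calls repeat that result. DESeq2 and limma with the block also called all 10, while the unblocked fit called only Myl4. In the unblocked fit, 0.072% of all genes tested were called lower. The summed level of the 10 markers was 3516, 3422, 1626 and 1862 TPM in control and 1149.9, 1352, 785 and 691 TPM in cold replicates 1 to 4. Replicates 1 and 2 were above replicates 3 and 4 in these markers within each group. Itga7 was ordered alike in both groups. By contrast, Itga6 in the cold was lower in replicates 1 and 2 (10.9 and 12.4 TPM) than in replicates 3 and 4 (17.1 and 16.3 TPM). Itga4 was ordered like the markers in control (15.8 and 16.6 against 6.78 and 10.9 TPM). In the cold, Itga4 in replicates 1 and 2 (6.57 and 9.33 TPM) overlapped with replicates 3 and 4 (4.35 and 6.63 TPM). In bulk RNA, fewer cells of a kind and less RNA per cell cannot be told apart, and the part of these markers in the fall of the 3 alpha chains was not tested.

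In the list of satellite cell and myoblast markers, Cdh15, Chrna1 and Myod1 were called lower and Megf10 higher by edgeR with the block, where 4.07% and 1.26% of all genes tested were. Their log2 fold changes were −0.32, −0.32, −0.13 and 0.17. Without the block 0 of the 9 were called, and limma did not call Myod1 or Megf10.

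Other cell types were followed by their own markers, and a count of 0 called below refers to edgeR with the block, with DESeq2 and limma also at 0. Fibroblast markers had 7 genes with values, summed to between 720.4 and 1101 TPM in control and between 733 and 1064 TPM in cold libraries, with 0 of 6 tested genes called and Pi16 at 0 throughout. At an unadjusted p under 0.05, 1 smooth muscle gene was lower and 1 macrophage gene higher, and none of the fibroblast, endothelial or epithelial genes. The 8 endothelial markers summed to at most 5.17 TPM and the 4 epithelial markers with values to at most 1.08 TPM. Markers of smooth muscle and pericytes summed to between 67.3 and 94.8 TPM over all libraries, with 0 of 6 tested genes called. Macrophage and leukocyte markers summed to between 40.9 and 105 TPM, with 0 of 3 tested genes called. The 6 Schwann cell and glia markers summed to between 12.8 and 18.5 TPM in control and between 8.87 and 14.7 TPM in cold libraries. In that list, 1 gene was called lower, the neuregulin receptor gene Erbb3, from 12.2 ± 2.91 to 8.95 ± 2.67 TPM (SD, n = 4 each; adjusted p = 5.89e-06 with edgeR and the block, 0.853 without it).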

How the data were processed

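RNA of 4 control and 4 cold cultures was sequenced by a service provider, per the study's methods, as paired-end reads of 150 bases. The authors deposited 1 table with expected counts per gene (not normalized), TPM values scaled within each library and normalized counts, a signal scaled by 1 factor per library that was not used here. The submitters' processing notes name HISAT and HISAT2. The counting program and genome build are not given in the sources used here, so no coordinates are given. Identifiers of all 33 genes were found in RefSeq.

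Expected counts were rounded, filtered with filterByExpr, TMM-normalized and compared by the quasi-likelihood F test of edgeR 4.0.16 (R 4.3.3) with Benjamini-Hochberg adjustment. Standard errors (SE) were derived from the fold change and its F statistic. The replicate number was a block because the comparison is defined by pairs. The correlations, across genes, of the deviations of same-numbered libraries from their group means were 0.61, 0.62, 0.65 and 0.66. They were between 0.43 and 0.59 for libraries of different number among replicates 1 and 2 or among replicates 3 and 4. The labels do not say what a number marks. With the block, p-values measure how the difference between cold and control varied over these pairs of cultures. Without the block, they measure the spread between cultures of a group. On counts simulated for this comparison with 200 changed genes, 12435 genes being tested, the blocked fit recovered 192 with 17 false calls. Limma 3.58.1 and DESeq2 1.42.0 were alternatives.

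Of the 33 genes, 1 is not reported by name here. Values in every library are given for genes called in the blocked fit, with a mean of at least 20 TPM, or used in a ratio. The genes, lists and tests were chosen with earlier results of these data known. Alternatives were the fit without the block, RLE factors, library totals, other filters on low counts, DESeq2, limma on log2 TPM with pseudocounts of 0.1, 1 and 0.01, each library left out, and replicates 1 and 2 or 3 and 4 alone. Figures used matplotlib 3.10.9 (Python 3.11.15).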

Additional observations from a re-analysis of the deposited data

Results flagged for a closer look

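Dixon's criterion for an isolated highest or lowest library was applied to the TPM of the 17 genes that the rule for values by library names, within each group of 4. It marked 1 of 34 groups, and chance marks about 1 in 20. This was Lamc1 in cold replicate 4, at 48.9 TPM, while cold replicates 1 to 3 held 53.1 to 53.9 TPM. The control library of replicate 4 held 49.2 TPM of Lamc1, so its pair differed less than the other pairs.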

How the results depend on the processing

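The calls of Itga7 and Itga4 held in 18 of 19 alternative settings each, that of Itga6 in 17 and that of Lama4 in 7, and the direction of all 4 genes held in all 19. These settings are not independent checks. All but the fit without the block kept the block, and the limma fits differed only in the pseudocount. With the block, leaving out either library of a pair removes that pair, and both gave nearly the same value. Without the replicate block, 0 genes were lower and 0 higher, against 3 and 1 with it, and with a log2 fold change of at least 1 required as well there were also 0 and 0. The number of genes higher was 0 with DESeq2, with limma at pseudocounts of 0.1, 1 and 0.01 and in replicates 3 and 4 alone, and 2 in replicates 1 and 2 alone. With single libraries left out, 3 genes were lower in every fit and between 0 and 1 were higher. The cause of these differences was not tested.

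Signs turned in genes that lay near 0 and were not called with all libraries. Itgb1 had a log2 fold change of −0.0102 in replicates 1 and 2 alone and between −0.0088 and 0.0134 with single libraries left out. Itgb1bp2 lay between −0.0966 and 0.0042 and Lama5 between −0.0280 and 0.0010 with single libraries left out. Values that kept their sign but moved by over 1.5 times without 1 library lay between −0.13 and −0.0035 for Itgb1bp1, −0.0969 and −0.0051 for Lamb2, 0.0265 and 0.0813 for Itgb5, 0.057 and 0.107 for Lama2, 0.0611 and 0.110 for Lamb1, and 0.0617 and 0.123 for Lamc1. Lama5 was at 0.0150, 0.0145 and 0.0150 with limma at pseudocounts of 0.1, 1 and 0.01 and at 0.0121 in replicates 3 and 4 alone, and Lamb2 was at 0.0297 there. With single libraries left out, the log2 difference in the ratio of Lama2 to Lamc1 lay between −0.0893 and 0.0646, that of Itga7 to Itgb1 between −0.39 and −0.23, that of Itga7 to Itga6 between 0.33 and 0.67, that of Lamb2 to Lamb1 between −0.26 and −0.03 and that of Itgb1bp2 to Itgb1 between −0.08 and −0.0097. Genes under 1 TPM, 10 of the 33, had too few counts for small changes to be seen.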

Other observations

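Itgb6 was at 66.9 to 88.7 TPM in all 8 libraries, although it is known mainly from epithelial cells, and the 4 epithelial markers with values together summed to at most 1.08 TPM. The epithelial laminin chains Lama3 and Lamb3 and the hemidesmosome chain Itgb4 were each at most 2.23 TPM in any library.

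Itgb3 was chosen after its values were seen. It was at 5.06, 5.35, 14.1 and 17.1 TPM in control and at 5.97, 5.36, 12.98 and 14.7 TPM in cold replicates 1 to 4. The same division by replicate number was seen in 23.5% of all genes tested. It was also seen in the summed fibroblast markers, at 724, 720.4, 989 and 1101 TPM in control and at 776, 733, 999.8 and 1064 TPM in cold replicates 1 to 4. The leukocyte chain Itgb2 had means of 0.39 TPM in replicates 1 and 2 and 0.33 TPM in replicates 3 and 4. With 5 to 14 counts per library, Itgb2 was too scarce to decide whether it had such a division. The summed macrophage and leukocyte markers showed the division, at 46.7, 40.9, 97.3 and 75.3 TPM in control and at 49.5, 44.1, 105 and 89.7 TPM in cold replicates 1 to 4. In that list, Cd68 and Cd14 made up most of the sum.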
